A study of Mus musculus with 8 samples.

Results

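This account concerns 3 endocytic lectin genes of lung macrophages, Mrc1 (ENSMUSG00000026712), Clec10a (ENSMUSG00000000318) and Mgl2 (ENSMUSG00000040950), taken by symbol from a table of 22597 genes. Each symbol named a single row, and all 3 rows passed the filter on low counts. The libraries hold polyadenylated RNA of interstitial macrophages, which lie in lung tissue outside the air spaces, from female C57BL/6 mice. Recipients were irradiated CD45.1/CD45.2 IMDTR mice, also labelled Cx3cr1-DTR, with the thorax shielded. They were given bone marrow from Tgfbr2fl/fl donors (WT, 4 libraries) or from Lyz2Cre Tgfbr2fl/fl donors (Tgfbr2_KO, KO below, 4 libraries). Every recipient received 50 ng of diphtheria toxin 1 month after the transplant, to empty the macrophage niche, and the macrophages were sorted 10 days later. One field of the labels gives the age of the mice as 18 weeks and another as 12 to 16 weeks. The comparison asks what cells that refill the niche express when the type II TGF-β receptor is deleted.

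Cre was present in the KO donors alone, so what Cre itself does and what the deletion does cannot be told apart. Lyz2Cre acts in myeloid cells at large and not in macrophages alone. The labels do not say whether a library is 1 mouse or a pool, so p-values rest on library-to-library spread, which may be technical. How many cells of the host remained in the sort was not measured here.

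The mannose receptor, CD206, encoded by Mrc1, is an endocytic receptor with a row of C-type lectin-like domains. It takes up glycoproteins that end in mannose, fucose or N-acetylglucosamine, among them lysosomal enzymes and microbial glycans, and it marks alveolar macrophages and the perivascular kind of interstitial macrophage. Clec10a encodes MGL1 (CD301a) and Mgl2 encodes MGL2 (CD301b), lectins with a single sugar-binding domain that recognise galactose and N-acetylgalactosamine. MGL1 is known for binding Lewis X structures and MGL2 for binding N-acetylgalactosamine, including the Tn antigen. All 3 genes are widely used as markers of macrophages stimulated with interleukin-4, and the galactose lectins are also found on dendritic cells.

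Mrc1 lies on GRCm38 chromosome 2, plus strand, at chr2:14229392-14332057. Its principal transcript has 30 exons and 5374 bases, of which 4368 are coding. Mgl2 lies at chr11:70130329-70137550 and Clec10a at chr11:70156197-70170834, both on the plus strand with 18.6 kb between them. Their principal transcripts have 10 exons each and 1586 and 1496 bases. The genes of the hepatic asialoglycoprotein receptor, Asgr1 and Asgr2, lie upstream on the same strand, so that 4 galactose lectin genes stand within 116.8 kb. The letters below show what sets the sugar class of these lectins. In C-type lectins, codons for glutamine, proline and aspartate (QPD) mark galactose binding, and codons for glutamate, proline and asparagine (EPN) mark mannose binding. Each stretch has 63 coding bases from the transcript, 5′ to 3′, with the 3 codons in capitals, and coordinates that name 2 exons include the intron between them.

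Clec10a QPD, exons 9 and 10, chr11:70170256-70170469: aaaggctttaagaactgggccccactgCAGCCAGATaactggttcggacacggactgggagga
Mgl2 QPD, exons 9 and 10, chr11:70136766-70136972: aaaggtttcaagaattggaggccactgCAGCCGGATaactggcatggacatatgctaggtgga
Asgr2 QPD, exons 8 and 9, chr11:70105472-70105776: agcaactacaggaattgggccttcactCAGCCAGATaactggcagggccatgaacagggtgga
Mrc1 EPN, exon 15, chr2:14294800-14294862: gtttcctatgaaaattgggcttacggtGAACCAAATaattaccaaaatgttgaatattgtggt
Mrc1 EPN, exon 19, chr2:14307906-14307968: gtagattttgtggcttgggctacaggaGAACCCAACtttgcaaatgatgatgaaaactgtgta

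In frame, QPD was found at 1 place in each of Clec10a, Mgl2, Asgr1 and Asgr2 and at 0 in Mrc1. EPN was found at 3 places in Mrc1 (codons 417, 743 and 889), of which the last 2 are shown, and at 0 in the other 4 genes. Which of these places bind sugar was not tested. Of the 63 bases, 47 were identical between Clec10a and Mgl2.

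The coding sequences of Clec10a and Mgl2 were identical at 835 of 912 aligned bases (91.6%). Of the 31-base windows of the principal Clec10a transcript, 362 of 1466 (24.7%) also occurred in a transcript of Mgl2, and 0 occurred in Mrc1, Asgr1 or Asgr2. The longest coding run that the pair shares without a difference spans exons 7 to 9 of both genes (chr11:70169822-70170189 in Clec10a and chr11:70136337-70136699 in Mgl2). It has 183 bases and is shown because a read that lies within it cannot be placed by sequence.

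Shared run: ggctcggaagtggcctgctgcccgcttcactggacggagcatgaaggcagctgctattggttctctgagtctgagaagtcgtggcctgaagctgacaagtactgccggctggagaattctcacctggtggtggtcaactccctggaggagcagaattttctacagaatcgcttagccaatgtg

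The deposited counts of the pair were tied to each other. The counts of both lectin genes had decimals in each library, while their sum was whole, within 0.0025, in 8 of 8 libraries. In KO 1, for example, 3151.217 counts of Clec10a and 18321.782 of Mgl2 added up to 21473. That is how estimated counts look when reads are divided between 2 genes, so the separate values are less certain than their sum. The Mrc1 count was whole in 8 of 8 libraries.

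The gene counts of a library summed to between 15597310 (WT 1) and 37654133 (WT 4), and 3 counts, taken as the floor, equalled 0.0844 to 0.177 CPM (counts per library scaled to a common total, with TMM factors). The libraries WT 1, WT 2 and KO 1 stood apart, with lung transcripts of other cell types. Summed over 10 epithelial markers they held 3198 to 5724 CPM, against 166 to 258 in the other 5, and over 10 blood endothelial markers 2482 to 4808 against 329 to 485. These 3 are called lung-rich below, a split known from earlier results of these data and not a group of the study. A fit that holds this split as a term beside genotype is called set-adjusted. Summed over 16 core macrophage genes such as C1qa, Csf1r and Cd68, they held 10339 (KO 1) to 16205 CPM, against 21875 to 24563 in the other 5. The sort label was thus matched by macrophage genes in all 8 libraries, at a lower share in the lung-rich ones. Tgfbr2 as a whole gene was at 424 to 576 CPM in KO and 474 to 548 in WT (log2 fold change -0.03), a total over all exons that says little about loss of 1 of them. Lyz2, which carries Cre in the KO donors, was at 3440 to 5611 CPM in KO and 7285 to 13193 in WT, with no overlap (edgeR adjusted p = 0.191, set-adjusted 1.47e-04). Every KO library lay below every WT library for 2.71% of the genes tested.

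The galactose lectins were higher in each KO library than in every WT library, and Mrc1 was higher in KO 2 to 4 but not in KO 1. Clec10a was at 38.7, 44.5, 65.7 and 62.7 CPM in WT 1 to 4, against 104, 242, 274 and 259 CPM in KO 1 to 4. Within each genotype the lung-rich libraries (WT 1, WT 2 and KO 1) were lowest, and the genotypes did not overlap. The means were 52.9 ± 13.3 CPM in WT and 219.8 ± 78.1 CPM in KO (SD, n = 4 each). Over all 8 libraries its log2 fold change of 2.05 (SE 0.34, 95% interval 1.27 to 2.84) did not pass the threshold of 0.05 (edgeR quasi-likelihood test, adjusted p = 0.066 over 12750 genes, unadjusted p = 3.78e-04). That comparison called 25 genes higher in KO (0.196%) and 13 lower (0.102%). Of the genes tested, 4.19% had every KO library above every WT library and 2.71% had every one below.

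Mgl2 was at 348, 356, 421 and 424 CPM in WT 1 to 4, against 606, 1273, 1226 and 1259 CPM in KO 1 to 4. It was thus at a narrow level in WT, with a range of 348 to 424, and the lowest KO library was KO 1. The means were 387 ± 40.8 CPM in WT and 1091 ± 324 CPM in KO (SD, n = 4 each). Its change of 1.49 on the log2 scale (SE 0.25, 95% interval 0.92 to 2.07) did not pass either (edgeR adjusted p = 0.0675). With the rows of the lectin pair summed, which does not depend on how shared reads were split, the log2 fold change was 1.57 (SE 0.26, edgeR adjusted p = 0.0666).

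Mrc1 was at 1206, 1092, 1431 and 1407 CPM in WT 1 to 4, against 1174, 2841, 2867 and 2859 CPM in KO 1 to 4. KO 1 lay within the WT range, so the genotypes overlapped, while KO 2 to 4 were nearly level with each other. The means were 1284 ± 163 CPM in WT and 2435 ± 841 CPM in KO (SD, n = 4 each), with 0.92 as the log2 fold change (SE 0.29, 95% interval 0.24 to 1.61; edgeR adjusted p = 0.291). In bulk RNA, more cells that express a gene and more RNA of it per cell cannot be told apart.

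**Figure D1:**
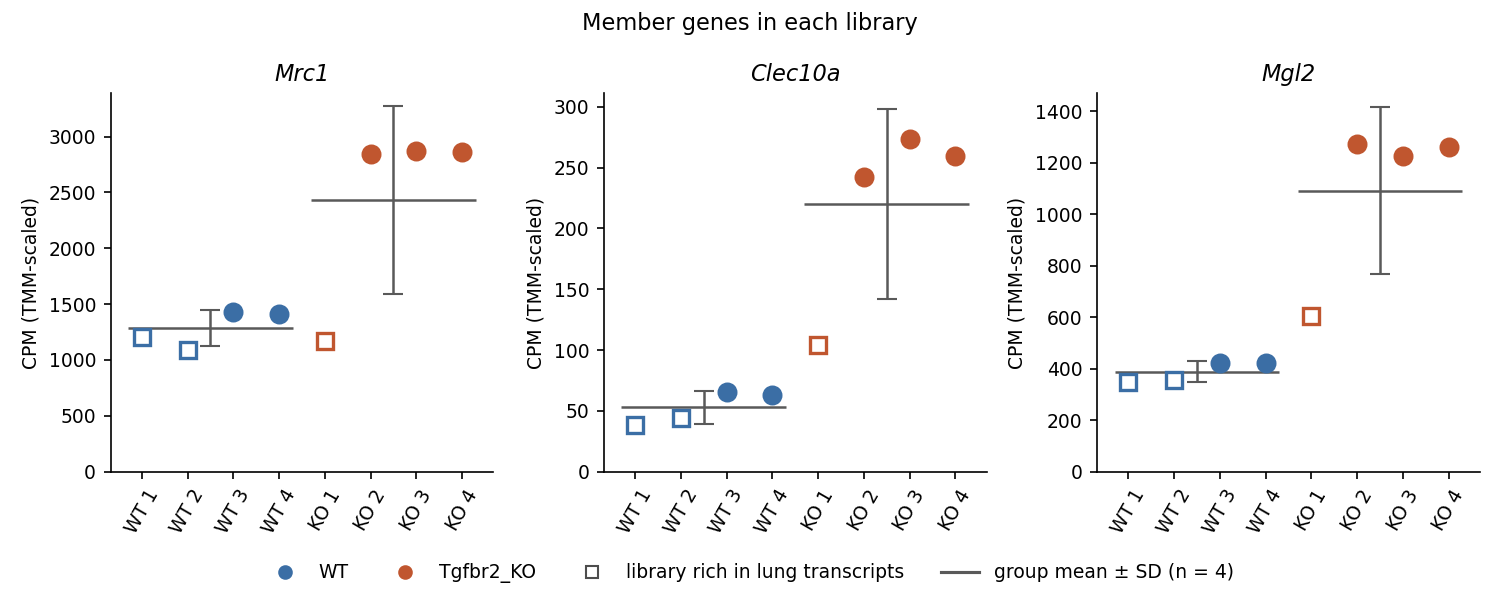
TMM-scaled CPM (y axis, from 0) of Mrc1, Clec10a and Mgl2 in each of the 8 libraries (x axis), with the group mean and SD as a line and bar, WT in blue, KO in orange and lung-rich libraries as open squares. KO 1 is at 1174 CPM of Mrc1, within the WT range, and at 104 and 606 CPM of Clec10a and Mgl2, above every WT library.

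Within the 5 other libraries, the values of WT 3 and WT 4 lay close together, as did those of KO 2, KO 3 and KO 4. Clec10a was at 64.2 ± 2.11 CPM in WT (SD, n = 2) and 258 ± 15.7 in KO (SD, n = 3), Mgl2 at 422 ± 1.59 and 1253 ± 24.1, and Mrc1 at 1419 ± 16.8 and 2855 ± 13.3. KO held 4.02 times the WT mean of Clec10a, 2.97 times that of Mgl2 and 2.01 times that of Mrc1. The log2 fold changes in this set were 2.01 (SE 0.05) for Clec10a, 1.57 (SE 0.03) for Mgl2 and 1.01 (SE 0.03) for Mrc1, and all 3 rose (edgeR adjusted p = 1.27e-13, 1.94e-18 and 2.48e-16). In the same fit 19.7% of 12624 genes were called higher in KO and 18.7% lower. If WT 3 and WT 4, or KO 2, KO 3 and KO 4, are not independent of each other, these errors are too small.

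In the lung-rich set the single KO library, KO 1, was at 2.50 times the mean of WT 1 and WT 2 for Clec10a, 1.72 times for Mgl2 and 1.02 times for Mrc1. The log2 fold changes were 1.26 (edgeR adjusted p = 0.0129), 0.72 (adjusted p = 0.0288) and -0.03 (adjusted p = 0.922), where the 1 KO library is assumed to vary like the WT libraries, and 3.16% of 14011 genes were called higher. These values compare 1 KO library with 2 WT libraries. The genotype difference was smaller in the lung-rich set by 0.98 for Mrc1 on the log2 scale, 0.79 for Mgl2 and 0.69 for Clec10a (edgeR test of the interaction, adjusted p = 1.97e-05, 2.44e-05 and 0.00211). This interaction passed for 18.9% of 12750 genes, and for every member it rests on KO 1, the library with the most epithelial and endothelial transcripts and the least of the core macrophage genes.

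In the set-adjusted fit, which assumes a single genotype effect, all 3 members rose. The log2 fold changes were 1.77 (SE 0.14) for Clec10a, 1.30 (SE 0.15) for Mgl2 and 0.67 (SE 0.18) for Mrc1 (edgeR adjusted p = 4.3e-04, 0.00148 and 0.0432), where 8.59% of genes were called higher and 7.89% lower. In a further set-adjusted fit, called the 6-library fit, WT 3 and WT 4 were summed into 1 library and KO 4 was left out, and 0.519% of 13479 genes were called higher and 0.853% lower. Clec10a then passed (1.64, edgeR adjusted p = 0.0289), and Mgl2 (1.14, adjusted p = 0.0557) and Mrc1 (0.49, adjusted p = 0.351) did not. The 6-library fit still counts KO 2 and KO 3 as separate libraries. Without KO 1 alone, the log2 fold changes over the other 7 libraries were 2.29, 1.69 and 1.15 for Clec10a, Mgl2 and Mrc1 (edgeR adjusted p = 0.00199, 5.25e-04 and 0.00305), where 4.85% of 12767 genes were called higher.

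**Figure D2:**
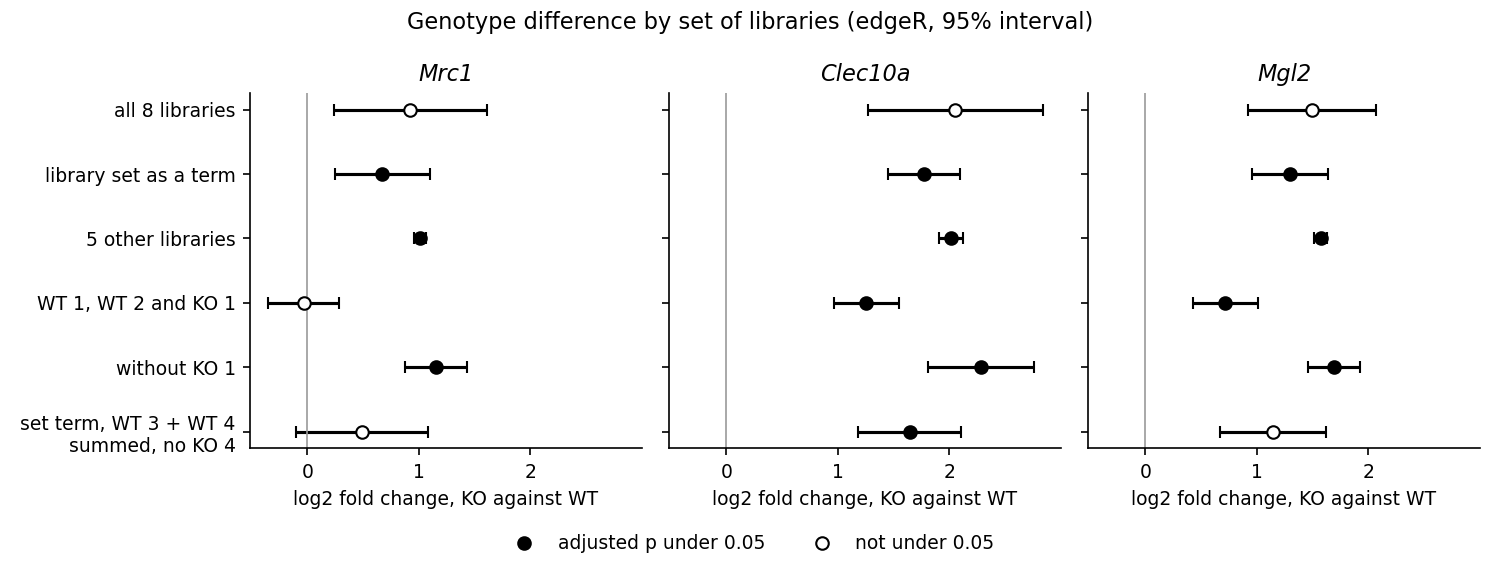
Log2 fold change of KO against WT (x axis) for each member with its 95% interval, in 6 fits that use different libraries or terms (y axis); filled points had an edgeR adjusted p under 0.05. The intervals of Clec10a and Mgl2 lie above 0 in all 6 fits, and those of Mrc1 reach 0 in the lung-rich libraries (-0.03) and in the fit with WT 3 and WT 4 summed (0.49).

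Relative to macrophage genes of the same library, all 3 members were higher in each KO library than in every WT library, KO 1 included. This measure is the ratio of a member's count to the geometric mean count of the 16 core macrophage genes, and it does not use the rest of the library. Mrc1 was at 2.13, 1.70, 1.51 and 1.45 times that mean in WT 1 to 4 and at 2.75, 3.21, 3.25 and 3.26 times in KO 1 to 4. Clec10a was at 0.0646 to 0.0694 times in WT and 0.244 to 0.31 times in KO. Mgl2 was at 0.436 to 0.614 times in WT and at 1.42, 1.44, 1.39 and 1.43 times in KO 1 to 4. The level of Mgl2 per macrophage gene was thus nearly the same in the 4 KO libraries, which was not so for its CPM. In WT it was the other way. There Mgl2 was at 0.614, 0.556, 0.444 and 0.436 times in WT 1 to 4, highest in the lung-rich libraries, while its CPM was at 348 to 424.

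On the log2 scale these ratios were higher in KO by 0.89 for Mrc1, 2.04 for Clec10a and 1.49 for Mgl2 (two-sided exact permutation test, p = 0.0286 for each). This is the smallest p that 4 libraries against 4 can give. How many of all genes would reach it on this measure was not counted. KO 1 held the least of the core genes (10339 CPM summed), so the measure raises any gene most in KO 1. For Mrc1 the difference was 0.53 between KO 1 and the mean of WT 1 and WT 2, and 1.13 within the other 5 libraries. Of the 16 core genes 0 passed in the fit of all 8 libraries (edgeR adjusted p under 0.05), with a median log2 fold change of 0.02 against -0.01 over all genes tested. In the set-adjusted fit 6 of the 16 were lower, where 7.89% of all genes were, among them the protease gene Ctss (-1.05). Without those 6 the differences were 0.79, 1.95 and 1.39 for Mrc1, Clec10a and Mgl2 (exact permutation test, p = 0.0286 for each), an alternative chosen after seeing the data.

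**Figure D3:**
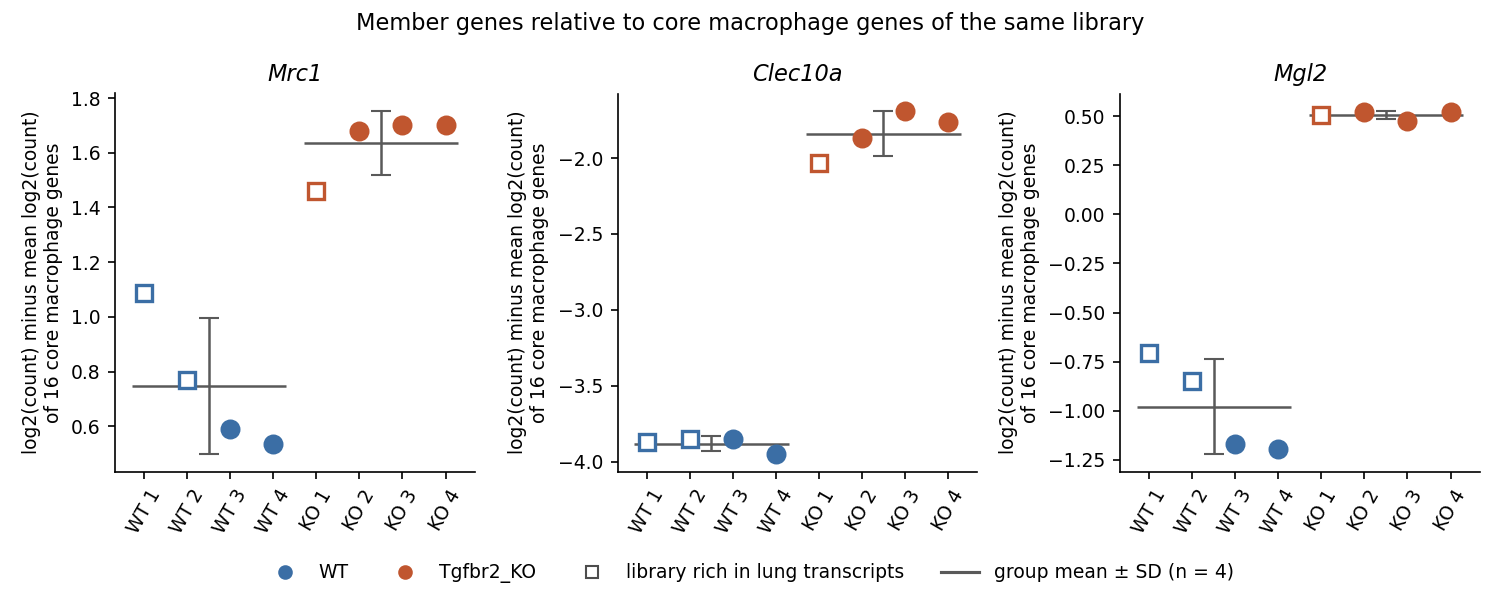
Log2 count of each member minus the mean log2 count of 16 core macrophage genes (y axis) in each library (x axis), with group mean and SD, WT in blue, KO in orange and lung-rich libraries as open squares. Every KO library lies above every WT library in each panel, and KO 1 is the lowest KO library for Mrc1 and Clec10a.

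The 3 members did not respond to the same extent. The ratio of one member to another within a library needs no scaling, and 3 pairs were compared. Clec10a rose relative to Mgl2 by 0.56 on the log2 scale (1.47-fold), relative to Mrc1 by 1.15 (2.22-fold), and Mgl2 relative to Mrc1 by 0.60 (1.51-fold). Each difference had p = 0.0286 in a two-sided exact permutation test, the smallest possible, and adjusted p = 0.0286 over the 3 pairs. With libraries permuted only within their set the differences were 0.48, 1.10 and 0.63 (exact permutation test, adjusted p = 0.0333 for each, the smallest possible). Without KO 3, the library with the highest share of Clec10a, the difference between the lectins was 0.50 and did not pass (exact permutation test, adjusted p = 0.0571).

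Of the counts of the lectin pair, Clec10a held 10.0%, 11.1%, 13.5% and 12.9% in WT 1 to 4 and 14.7%, 16.0%, 18.2% and 17.1% in KO 1 to 4. The shares did not overlap between genotypes, and within each genotype the lung-rich libraries were lowest. These shares depend on how reads from the shared stretches were divided, which was not tested.

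Per kilobase of principal transcript, Mgl2 stood higher relative to Mrc1 in KO than in WT, and Clec10a was lowest in both. In WT, Mrc1 was at 239 ± 30.3 and Mgl2 at 244 ± 25.7 CPM per kb (SD, n = 4), so these 2 did not differ beyond their spread. Clec10a, at 35.4 ± 8.90 CPM per kb, was lower in all 4 WT libraries. In KO, Mgl2 was highest at 688 ± 204 CPM per kb, then Mrc1 at 453 ± 156 and Clec10a at 147 ± 52.2. The ratio of Mgl2 to Mrc1 per kb was 0.98, 1.11, 1.00 and 1.02 in WT 1 to 4 and 1.75, 1.52, 1.45 and 1.49 in KO 1 to 4. Mgl2 thus exceeded Mrc1 per length in 4 of 4 KO libraries. With its longest complete transcript of 2332 bases in place of 1496, Clec10a was at 22.7 ± 5.71 and 94.2 ± 33.5 CPM per kb, still the lowest of the 3.

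**Figure D4:**
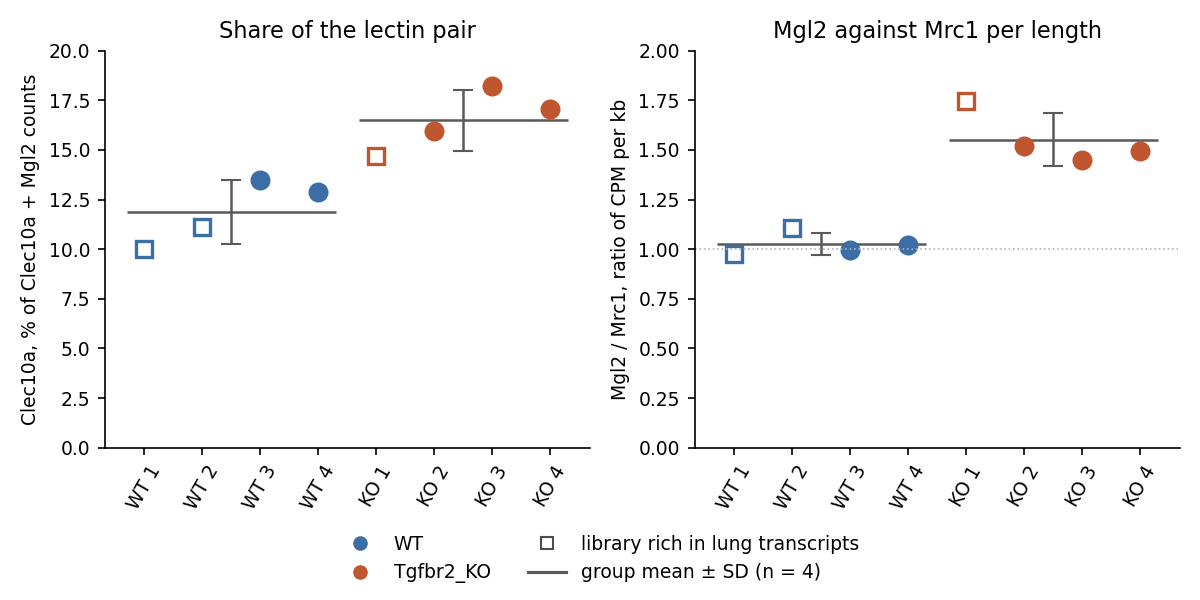
Left, Clec10a as a percentage of the counts of Clec10a and Mgl2 together, and right, the ratio of Mgl2 to Mrc1 in CPM per kb of transcript (y axes, from 0), in each library (x axis) with group mean and SD, WT in blue, KO in orange and lung-rich libraries as open squares. KO libraries lie above every WT library in both panels, at 14.7% to 18.2% against 10.0% to 13.5% and at 1.45 to 1.75 against 0.98 to 1.11.

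Of the neighbours in the lectin cluster, Asgr2 was expressed and Asgr1 was not detectable at this depth. Asgr2, a subunit of the hepatic receptor that clears galactose-ended glycoproteins, was at 9.40, 9.79, 9.33 and 11.4 CPM in WT 1 to 4, against 13.7, 21.8, 24.8 and 21.7 CPM in KO 1 to 4. Its genotypes did not overlap, and KO 1 was the lowest KO library here too. Every KO library lay above every WT library for 4.19% of the genes tested. On the log2 scale KO was higher by 1.04 (SE 0.18), which did not pass in edgeR (adjusted p = 0.0851), and set-adjusted by 0.91, which did (adjusted p = 0.00421). In the 6-library fit 0.80 did not pass (edgeR adjusted p = 0.0831). Asgr1 and Clec4f, a galactose receptor of Kupffer cells, had at most 0.0591 and 0.154 CPM in a library, at or near the floor, and were not tested.

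**Figure D5:**
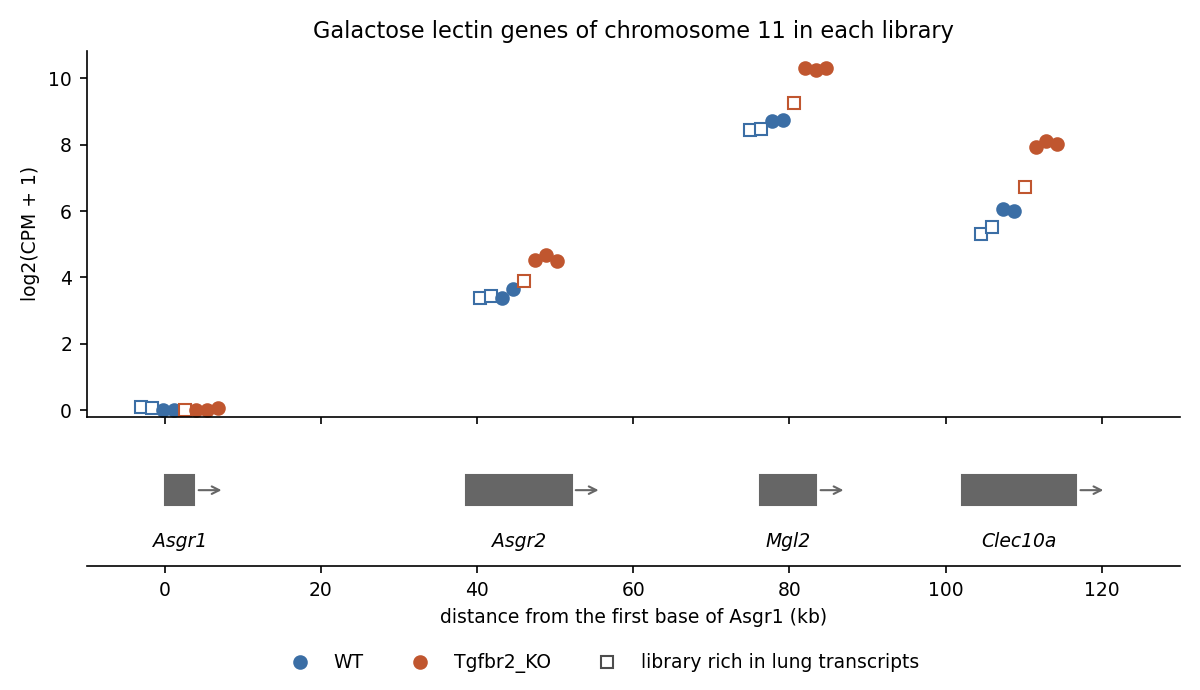
Top, log2(CPM + 1) of the 4 galactose lectin genes of chromosome 11 in each library (WT 1 to 4, then KO 1 to 4, from left to right at each gene), and bottom, the genes drawn to scale by distance from the first base of Asgr1, with arrows in the direction of transcription. Asgr1 lies at or near 0, and KO libraries lie above every WT library at Asgr2, Mgl2 and Clec10a.

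In the set of 6 galactose-binding lectins, which holds Clec10a and Mgl2, 4 were tested, and 0 passed over all 8 libraries in either direction. Their median log2 fold change was 1.27, against -0.01 over all genes tested, and it includes those members. Apart from them, Asgr2 was at 1.04 and Colec12 at 0.03. Set-adjusted, all 4 tested were higher, namely Clec10a, Mgl2, Asgr2 and the scavenger collectin Colec12, where 8.59% of all genes were. In the 6-library fit 1 of the 4 passed, Clec10a, where 0.519% of all genes were higher. Colec12 was higher in each lung-rich library (51.3 to 82.4 CPM) than in the others (9.64 to 19.0 CPM), and its log2 fold change was 0.03 over all 8 libraries and 0.66 set-adjusted (edgeR adjusted p = 0.0101, and 0.146 in the 6-library fit).

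The mannose receptor family has 4 members, all tested, and the set-adjusted fit called Mrc1 alone, where 8.59% of all genes were higher. Over all 8 libraries 0 of 4 passed (edgeR adjusted p under 0.05), with a median log2 fold change of -0.27. Mrc2, the collagen-binding receptor Endo180, was at 44.2 to 76.3 CPM in the lung-rich libraries and at 2.75 to 4.28 CPM in the others. Pla2r1, the phospholipase A2 receptor, was at 12.6 to 20.6 CPM in the lung-rich libraries and at 1.08 to 1.95 CPM in the others. Both thus went with the lung transcripts, and neither passed for genotype in the set-adjusted fit (edgeR adjusted p = 0.421 and 0.677). Ly75, which encodes the dendritic cell receptor DEC-205, was at 4.14 to 9.51 CPM in WT and 1.32 to 6.68 CPM in KO. It fell in the 5 other libraries (log2 fold change -1.95, edgeR adjusted p = 1.91e-05) and did not pass set-adjusted (adjusted p = 0.203).

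Genes of the interleukin-4 pathway, which induces all 3 members in cultured mouse macrophages, did not move as 1 group. Of 19 tested genes on the list of interleukin-4-induced genes, which holds the 3 members, 1 rose over all 8 libraries (Ccl24), 0 fell and 18 did not pass, with a median of 0.03. Set-adjusted, 7 of 19 rose and 3 fell, where 8.59% of all genes rose and 7.89% fell, with a median of -0.00 against 0.03 over all genes tested. The 7 were Mrc1, Clec10a, Mgl2, Ccl24, Alox15, Egr2 and Retnla, and the 3 were Arg1, Ccl17 and Chil3. In the 6-library fit 3 rose (Ccl24, Clec10a and Retnla) and 0 fell (edgeR adjusted p = 0.122, 0.078 and 0.235 for Arg1, Ccl17 and Chil3). Retnla, the secreted resistin-like molecule RELMα, was at 107, 89.9, 241 and 253 CPM in WT 1 to 4, against 252, 931, 1039 and 1000 CPM in KO 1 to 4. Its genotypes overlapped only through KO 1, as for Mrc1, with a log2 difference of 2.22 (edgeR adjusted p = 0.174), or 1.78 set-adjusted (adjusted p = 3.18e-04). The chemokine gene Ccl17 was at 8.52 to 18.7 CPM in WT and 5.75 to 12.5 CPM in KO (set-adjusted log2 fold change -0.80, edgeR adjusted p = 0.00489).

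Of 15 genes of the receptor and its signalling 0 passed over all 8 libraries (edgeR adjusted p under 0.05; median 0.07). Set-adjusted, 0 rose and 2 fell, where 7.89% of all genes fell, namely the receptor chain Il13ra1 and the coactivator Ppargc1b. Neither passed in the 6-library fit (edgeR adjusted p = 0.114 and 0.157). Within the 5 other libraries 5 of the 15 rose (Il4ra, Irf4, Jak1, Kdm6b and Stat6) and 4 fell, where 19.7% of all genes rose and 18.7% fell. Il4ra, the receptor chain that binds interleukin-4, was at 266 to 342 CPM in WT and 269 to 424 CPM in KO (set-adjusted 0.18, edgeR adjusted p = 0.0912; 0.27 in the 5 other libraries, adjusted p = 2.26e-06). Stat6, the transcription factor that it activates, was at 158 to 183 CPM in WT and 156 to 202 CPM in KO (set-adjusted 0.05, edgeR adjusted p = 0.541; 0.11 in the 5 other libraries, adjusted p = 0.0219).

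Of 9 tested mannose-binding lectins other than the family of Mrc1, 0 passed over all 8 libraries (median -0.15). Set-adjusted 1 fell, where 7.89% of all genes did. It was M6pr, which carries lysosomal enzymes inside the cell (edgeR adjusted p = 0.124 in the 6-library fit). Cd209a, a lectin of dendritic cells and some macrophages, was at 4.62 to 16.9 CPM in WT and 13.2 to 31.7 CPM in KO (log2 fold change 1.56, edgeR adjusted p = 0.27, set-adjusted p = 0.0627). Within the 5 other libraries it rose by 2.57 on the log2 scale (edgeR adjusted p = 1.02e-13), and KO 1, at 13.2 CPM, lay between WT 1 and WT 2, at 16.9 and 8.78 CPM. Of 6 galectins 0 passed (edgeR adjusted p under 0.05, median -0.09). Set-adjusted 1 fell, Lgals3 (edgeR adjusted p = 0.144 in the 6-library fit), where 7.89% of all genes did. Among 15 enzymes of O-glycan synthesis, which make and extend the Tn antigen that MGL2 binds, 0 passed over all 8 libraries (median 0.02). Set-adjusted, 3 of them fell, the transferase genes Galnt3, Galnt6 and Galnt7, and 0 rose, where 7.89% of all genes fell. Galnt6 did not pass in the 6-library fit (edgeR adjusted p = 0.0788), and Galnt3 and Galnt7 did (adjusted p = 0.0494 and 0.0346).

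Markers of other cells that carry these receptors, and of monocytes, were measured in the same libraries, and some of them moved with genotype. Siglecf, which defines alveolar macrophages, cells rich in CD206, was at 1.48 to 5.15 CPM in WT and 1.02 to 2.29 CPM in KO (set-adjusted log2 fold change -1.13, edgeR adjusted p = 0.0187, and 0.123 in the 6-library fit). The 14 alveolar macrophage markers summed to 165 to 571 CPM in WT and 158 to 232 in KO. Of the 2 highest sums, 560 (WT 3) and 571 (WT 4), Chil3 alone held 348 and 347 CPM. Chil3 was at 17.5 and 30.0 CPM in WT 1 and WT 2 and at 15.8 to 20.4 CPM in KO. Set-adjusted, 2 of 11 tested alveolar markers rose and 4 fell, where 8.59% of all genes rose and 7.89% fell. In the 6-library fit 0 passed in either direction. Flt3, which defines dendritic cells, was at 4.25 to 6.32 CPM in WT and 3.34 to 6.21 CPM in KO. The 13 dendritic cell markers summed to 315 to 405 CPM in WT and 360 to 454 in KO. Set-adjusted, 1 of 12 tested rose, near the 8.59% of all genes that did. It was the transcription factor Zbtb46 (log2 fold change 1.01, edgeR adjusted p = 7.31e-04), at 6.50 to 27.3 CPM in WT and 15.4 to 44.5 in KO. Zbtb46 also passed in the 6-library fit (0.94, edgeR adjusted p = 0.0342), where 0.519% of all genes were higher. Within the 5 other libraries 5 of 13 dendritic cell markers rose, Zbtb46 among them, and 3 fell, where 19.7% of all genes rose and 18.7% fell. Lymphatic endothelium also expresses CD206, and its defining gene Prox1 was at 0 to 1.01 CPM in WT and 0.306 to 1.59 CPM in KO. The lymphatic markers, 10 rows of which 1 was at 0 in all libraries, summed to 96.0 to 274 CPM in WT and 130 to 418 CPM in KO, with the lung-rich libraries highest. Set-adjusted, 1 of 8 tested rose and 1 fell, where 8.59% of all genes rose and 7.89% fell. Lyve1, which macrophages also express, rose (log2 fold change 1.52, edgeR adjusted p = 0.00184) and Pdpn fell (-0.97, adjusted p = 0.0492). Neither passed in the 6-library fit (edgeR adjusted p = 0.0549 and 0.244). The 10 monocyte markers summed to 2389 to 2962 CPM in WT and 3110 to 3452 CPM in KO without overlap, a gap that F13a1 alone carried. Without it the other 9 summed to 2219 to 2713 CPM in WT and 2048 to 2625 CPM in KO (chosen after seeing the data), and KO 2 to 4 lay below every WT library. That sum still holds Chil3, at 348 and 347 CPM in WT 3 and WT 4 and 15.8 to 17.6 CPM in KO 2 to 4. A sum without Chil3 was not made. F13a1 was the 1 of 10 that rose over all 8 libraries (edgeR adjusted p = 0.0476), where 0.196% of all genes did. Set-adjusted, 3 rose (Ace, F13a1 and Ly6c2) and 2 fell (Ccr2 and Chil3), where 8.59% of all genes rose and 7.89% fell. In the 6-library fit 0 monocyte markers passed in either direction. The part of these cells in the lectin values was not tested.

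Across the 8 libraries, log2 CPM of Clec10a and Mgl2 had a Pearson r of 0.99 with each other, and Mrc1 had 0.93 and 0.94 with them. These are descriptions over 8 libraries that share the genotype and set structure. Among 8682 other genes with a mean of at least 10 CPM, Cfp, which encodes properdin of the complement system, was most like both galactose lectins (r = 0.996 with Clec10a and 0.998 with Mgl2). It was at 181 to 257 CPM in WT and 398 to 995 CPM in KO. Next for Clec10a were Ifitm6, Susd1, Sp100 and Oas2 (r = 0.991 to 0.994), and for Mgl2 they were Tmem8, Steap4, Ccl7 and Susd1 (r = 0.990 to 0.996). The genes most like Mrc1 were others, led by the exchange factor gene Rasgrp4 (r = 0.9996), at 60.8 to 76.1 CPM in WT and 65.1 to 145.7 CPM in KO, and followed by Ap1b1, Dclre1c, Adam15 and Snx8 (r = 0.997 to 0.998). Rasgrp4 thus overlapped between genotypes as Mrc1 did.

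All 3 members rose in the 5 other libraries, and the promoters of Mgl2 and Mrc1 are shown. Of the 3 members these 2 were matched in the table of promoters from RefSeq (GRCm38.p6). Each has the 220 bases from 250 to 31 before the RefSeq start, plus strand, with matches to the searched motifs in capitals.

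Mrc1, chr2:14229164-14229383: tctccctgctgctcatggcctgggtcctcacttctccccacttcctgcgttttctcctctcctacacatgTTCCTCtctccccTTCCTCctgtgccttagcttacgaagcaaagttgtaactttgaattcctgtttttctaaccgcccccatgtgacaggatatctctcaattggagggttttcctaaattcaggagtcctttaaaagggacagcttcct
Mgl2, chr11:70130107-70130326: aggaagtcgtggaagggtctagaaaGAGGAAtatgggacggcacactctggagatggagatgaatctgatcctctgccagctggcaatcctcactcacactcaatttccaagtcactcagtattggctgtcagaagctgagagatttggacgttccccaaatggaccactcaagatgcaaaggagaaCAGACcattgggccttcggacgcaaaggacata

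Both strands were searched for 5 motifs, and no matches overlapped. The core letters of the myeloid factor PU.1, GAGGAA, were found 2 times in Mrc1 and 1 time in Mgl2, and 20.4% of 27025 promoters of the same length held them. CAGAC, letters bound by SMAD proteins, was found 1 time in Mgl2 and 0 times in Mrc1, and 38.4% of promoters held it. The STAT6 letters (TTC and GAA with 4 bases between them), the letters of other STAT factors (the same with 3 bases between) and the MAF letters TGCTGA were in neither window, and 5.22%, 6.40% and 14.2% of promoters held them. These matches describe letters in the window and are not binding sites.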

How the data were processed

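Libraries were prepared from 100 ng of TRIzol-extracted RNA with a kit that keeps the strand, per the labels. The authors deposited 1 table of estimated counts per gene made with salmon, per its file name, and the column totals differ as unscaled counts do. GRCm38 and DESeq2 1.40.1 appear in the submitters' processing notes. Which salmon version, strand setting and annotation were used is not stated in the labels.

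Estimated counts were rounded. R 4.3.3 was used with edgeR 4.0.16 (filterByExpr, minimum count 10 and total 15, TMM, robust quasi-likelihood F-test, Benjamini-Hochberg adjustment over all tested genes, threshold 0.05), and with limma 3.58.1 and DESeq2 1.42.0 for alternatives. Fits were also run on simulated counts. These held no interaction of genotype and library set and, for the fit without the set term, no set effect, so such data were not covered. Totals were 15597310 to 37654133 counts. Ratios were compared with exact two-sided permutation tests. Likeness is Pearson's r of log2 CPM (prior count 2). Positions and transcripts came from GENCODE M21 (GRCm38), with the principal transcript as annotated there. The members, gene lists and library sets were chosen with earlier results of these data known. Named genes were the members, their families, up to 4 genes per list with the smallest adjusted p, the 5 genes most like each member and defining markers. List genes called in a fit were named after their values were seen.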

Additional observations from a re-analysis of the deposited data

Results flagged for a closer look

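KO 1 stood far below the other KO libraries for 2 members, by a gap test (Dixon, 95% level) that flags about 1 in 20 groups by chance. Mrc1 was at 1174 CPM in KO 1, against 2841 CPM in the next KO library. Mgl2 was at 606 CPM in KO 1, against 1226 CPM in the next. The gap of Clec10a, at 104 against 242 CPM, did not pass this test.

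The genotype difference in log2 fold change was smaller in the lung-rich libraries than in the other 5 for each member. Lung-rich minus other, the value was -0.98 for Mrc1, -0.69 for Clec10a and -0.79 for Mgl2 (edgeR interaction test, adjusted p = 1.97e-05, 0.00211 and 2.44e-05). Each value rests on KO 1.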

How the results depend on the processing

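The counts of genes changed over all 8 libraries (25 higher and 13 lower in KO) depend most on which libraries enter. They were 1095 and 1006 set-adjusted (with a term for the library set), 2493 and 2363 in the 5 other libraries, 443 and 273 for the 3 lung-rich libraries, 314 and 152 with DESeq2, and 70 and 115 in the 6-library fit (set-adjusted, WT 3 summed with WT 4, without KO 4). Leaving out 1 library gave 0 to 619 higher and 0 to 241 lower; both were 0 without each library but KO 1 (edgeR, 807 to 1451 genes at an unadjusted p under 0.05). Same-numbered libraries did not deviate together in every pair (correlation of deviations 0.87, -0.79, 0.69 and 0.75), so the numbers were not taken as pairs. The replicate block gave 0 higher and 0 lower in edgeR, with 1479 genes at an unadjusted p under 0.05.

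Log2 fold changes of Clec10a, Mgl2 and Mrc1 passed set-adjusted (1.77, 1.30 and 0.67) and within the 5 other libraries (2.01, 1.57 and 1.01). For the 3 lung-rich libraries, Clec10a (1.26) and Mgl2 (0.72) passed and Mrc1 was at -0.033. DESeq2 called Clec10a (2.05) and Mgl2 (1.49), and on those 6 libraries Clec10a passed (1.64). Leaving out 1 library gave 1.92 to 2.29, 1.41 to 1.69 and 0.83 to 1.15, and the members passed only without KO 1.

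The permutation tests of Clec10a over Mgl2, Clec10a over Mrc1 and Mgl2 over Mrc1 cannot reach 0.05 in the 5 other libraries (0.44, 1.00 and 0.56; smallest exact p 0.1) or by sign flips in the replicate block (0.56, 1.15 and 0.60; smallest exact p 0.125). The same holds relative to core genes for Mrc1, Clec10a and Mgl2 within the 5 other libraries (1.13, 2.13 and 1.69) and for the block (0.89, 2.04 and 1.49). On TMM-scaled CPM Mrc1 differed by 0.84 and did not pass (exact permutation test, p = 0.114). Leaving out 1 library gave 0.47 to 0.63, 1.04 to 1.21 and 0.54 to 0.63 for the ratios, and 0.82 to 1.00, 1.99 to 2.11 and 1.41 to 1.58 relative to core genes. Depth was not the limit for any member, which had at least 655 counts in each library.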
